A study of Arabidopsis thaliana with 16 samples.

Results

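The 6 Arabidopsis thaliana genes described here are AT5G55450, of the lipid transfer protein family, AT5G03350, of the legume lectin family, AT3G51330, of the aspartyl protease family, AT5G52760, with a heavy-metal-associated domain, AT1G57630, with a TIR domain, and AT1G76960, for which no family was given. They were chosen by their low signal in atgsnor1-3 leaves against Col-0 leaves, untreated or after avrB, with no numeric limit stated. They are 6 of 13286 genes with a matched probe set on the array, each gene has 1 probe set, and all 6 passed the filter on dim probe sets. RefSeq's TAIR10.1 annotation lists all 6 as protein coding, AT5G55450, AT5G03350 and AT5G52760 on chromosome 5, AT1G57630 and AT1G76960 on chromosome 1 and AT3G51330 on chromosome 3. Because the choice used atgsnor1-3 and Col-0 arrays, every comparison that holds such arrays is given below as a description without a test.

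The study hybridised RNA from leaf tissue of 4-week-old plants to Affymetrix ATH1 arrays, 1 colour, 16 arrays in 8 groups of 2. Leaves of atgsnor1-3, sid2, atgsnor1-1 and the wild type Col-0 (stock N1092) were taken 6 h after avrB and, as the control for it, untreated. The labels name the mutants without stating their lesions or the sid2 allele, give no mock inoculation, and do not say how avrB was delivered or whether 2 arrays of a group stand for separate plants. A p-value here thus measures the spread between the arrays alone, and that spread may be technical. In whole leaves, fewer cells of a type and less RNA per cell cannot be told apart.

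GSNOR1 is the enzyme that breaks down S-nitrosoglutathione, a store of nitric oxide that can modify protein cysteines. In the literature atgsnor1-3 is a loss-of-function line and atgsnor1-1 a line with raised enzyme activity. SID2 is an isochorismate synthase on the main route to salicylic acid, the hormone behind much of the defence against leaf-infecting bacteria. AvrB is an effector of Pseudomonas syringae, and its recognition in Col-0 through the receptor RPM1 leads to a rapid local defence response. Lipid transfer proteins are small, cysteine-rich and mostly secreted, legume-type lectins bind sugars, and aspartyl proteases cut other proteins. Heavy-metal-associated domains bind metal ions, and TIR domains are found in a large class of plant immune receptors and in shorter relatives.

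The array medians lay between 33.1 and 40.9 signal units, and an array had 33.7% to 40.6% of its probe sets below 20.2 units. A probe set whose mean fell short of that level was not kept. Signals under that level lie near background, so a ratio from them gives a direction more firmly than a size. Arrays of the same group correlated across probe sets at 0.920 to 0.972, and 4 arrays were closest to an array of another group. Of 10 listed photosynthesis markers of leaf cells, 7 were measured, each above 20.2 units on all 16 arrays, while 3 root markers summed to at most 61.1 units and 2 pollen markers to at most 25.2 units. The targeted genes, GSNOR1 and that of isochorismate synthase, are not analysed here, and the genotypes rest on the labels alone.

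In untreated atgsnor1-3 leaves all 6 genes lay far below Col-0, and after avrB 3 of them did. With each signal under 20.2 units set to that level, untreated atgsnor1-3 was lower than Col-0 by 76.3-fold for AT5G55450, 41.1-fold for AT1G76960, 23.4-fold for AT5G52760, 21.5-fold for AT5G03350, 8.54-fold for AT3G51330 and 6.95-fold for AT1G57630. After avrB, atgsnor1-3 was lower by 62.9-fold for AT5G03350, 37.5-fold for AT5G55450 and 13.2-fold for AT1G76960 on the same scale. AT3G51330 stood at 21.4% of its Col-0 level after avrB, AT5G52760 at 51.5% and AT1G57630 at 90.5%, all from signals above 20.2 units. Where atgsnor1-3 lay under 20.2 units, its deposited signal gives no firm size. The description as genes nearly lost in atgsnor1-3 after avrB therefore fitted the lipid transfer, lectin and AT1G76960 genes and went against the data for the TIR gene, the metal-associated gene and, in part, the protease gene. The plot of member signals by group shows this split.

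**Figure D1:**
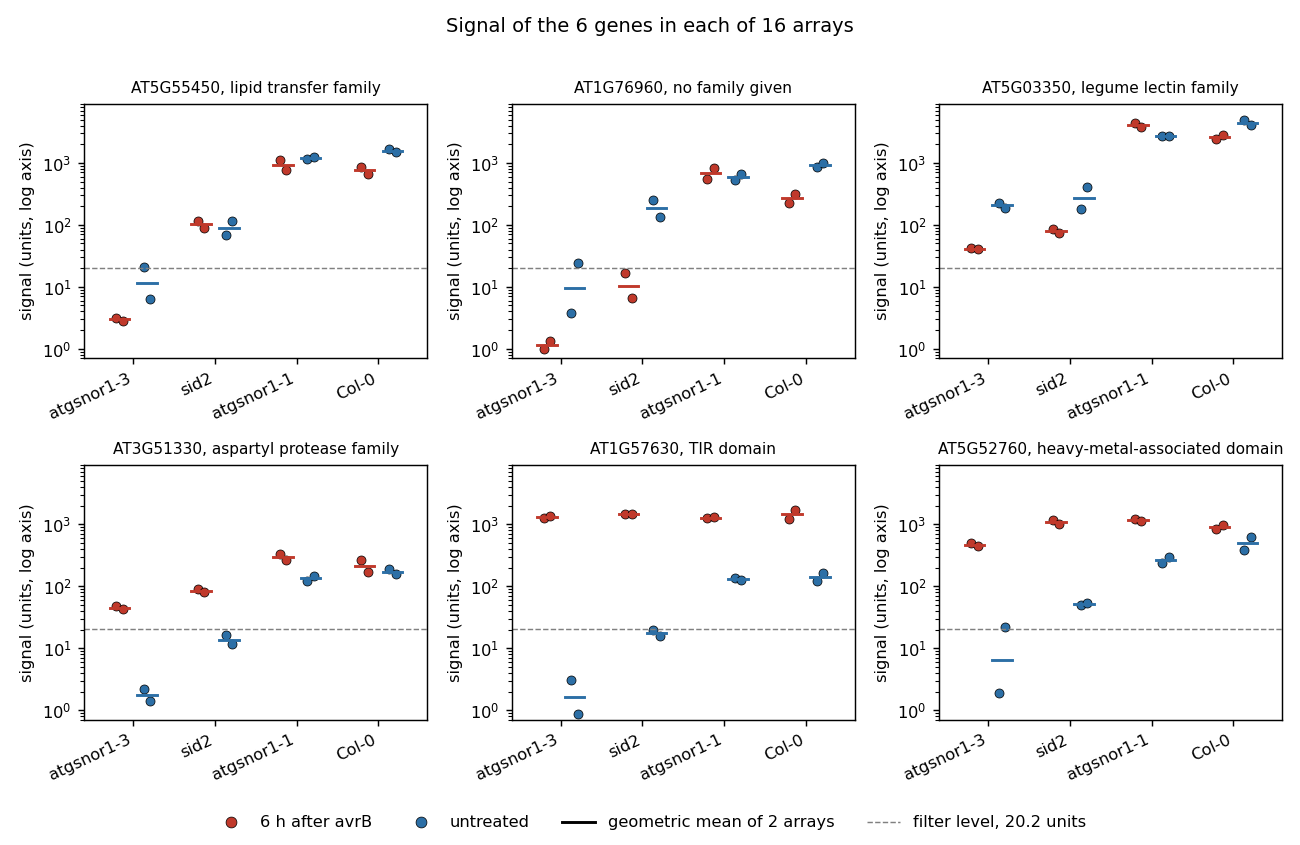
Signal of the 6 genes on each array (log axis, signal units), by genotype, after avrB and untreated, with 2 points per group, a bar at their geometric mean and a dashed line at 20.2 units. AT5G55450, AT1G76960 and AT5G03350 lie lowest in atgsnor1-3 after avrB, at geometric means of 2.99, 1.14 and 41.4 units, while AT1G57630 reaches 1313 units there.

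AT5G55450 encodes a protein of the lipid transfer family. After avrB it read 3.15 and 2.84 units in atgsnor1-3, 117 and 90.0 units in sid2, 1122 and 775 units in atgsnor1-1, and 872 and 659.9 units in Col-0. In untreated leaves it read 21.0 and 6.29 units in atgsnor1-3, 69.6 and 116 units in sid2, 1149.6 and 1229 units in atgsnor1-1, and 1669.6 and 1483 units in Col-0. Both atgsnor1-3 arrays lay below all others in either state, both sid2 arrays came next, and atgsnor1-1 and Col-0 overlapped after avrB. The log2 difference between atgsnor1-3 and Col-0 was -7.99 after avrB and -7.10 in untreated leaves, or -5.23 and -6.25 with dim signals set to 20.2 units. From lowest to highest, the 8 groups ran atgsnor1-3 after avrB, atgsnor1-3 untreated, sid2 untreated, sid2 after avrB, Col-0 after avrB, atgsnor1-1 after avrB, atgsnor1-1 untreated and Col-0 untreated, and only the pair of sid2 groups and the pair of avrB-treated Col-0 and atgsnor1-1 overlapped.

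AT5G03350 belongs to the legume lectin family and is known as a gene induced by salicylic acid. After avrB it read 42.2 and 40.6 units in atgsnor1-3, 86.1 and 73.2 units in sid2, 4468 and 3815 units in atgsnor1-1, and 2393 and 2834 units in Col-0. Untreated leaves gave 229 and 187 units in atgsnor1-3, 181 and 403 units in sid2, 2672 and 2688 units in atgsnor1-1, and 4853 and 4075 units in Col-0. This was the only one of the 6 genes above 20.2 units on every array, so its differences did not involve dim signals. The log2 difference between atgsnor1-3 and Col-0 was -5.97 after avrB and -4.42 in untreated leaves. In untreated leaves atgsnor1-3 and sid2 overlapped, while after avrB atgsnor1-3 lay below sid2 and both lay below every atgsnor1-1 and Col-0 array. After avrB the atgsnor1-1 arrays lay above those of Col-0, and in untreated leaves below them.

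AT1G76960 was given no family in the annotation used here. After avrB it read 0.979 and 1.33 units in atgsnor1-3, 16.5 and 6.60 units in sid2, 549 and 829 units in atgsnor1-1, and 222 and 320.0 units in Col-0. In untreated leaves it read 3.81 and 24.2 units in atgsnor1-3, 253 and 135 units in sid2, 535 and 664 units in atgsnor1-1, and 846 and 981 units in Col-0. All arrays of atgsnor1-3 and sid2 after avrB were below 20.2 units, so the order of these groups rests on signals near background. The log2 difference between atgsnor1-3 and Col-0 was -7.87 after avrB and -6.57 in untreated leaves, or -3.72 and -5.36 with dim signals set to 20.2 units. Untreated sid2 held 20.3% of the Col-0 signal, the largest share that sid2 kept of any of the 6 genes in untreated leaves, and after avrB it held 3.92%.

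AT3G51330 encodes a protein of the aspartyl protease family. After avrB it read 47.3 and 43.4 units in atgsnor1-3, 90.5 and 79.4 units in sid2, 331 and 265 units in atgsnor1-1, and 263 and 169.6 units in Col-0. Untreated leaves gave 2.20 and 1.41 units in atgsnor1-3, 16.4 and 11.6 units in sid2, 121 and 148 units in atgsnor1-1, and 189.9 and 157 units in Col-0. The 4 untreated arrays of atgsnor1-3 and sid2 were below 20.2 units, and after avrB the same genotypes were above that level but below every array of the other genotypes. The log2 difference between atgsnor1-3 and Col-0 was -2.22 after avrB and -6.62 in untreated leaves, where dim signals set to 20.2 units gave -3.09. The groups did not overlap in order except untreated Col-0 and Col-0 after avrB.

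AT5G52760 carries a heavy-metal-associated domain. After avrB it read 491 and 441 units in atgsnor1-3, 1183 and 1023 units in sid2, 1219 and 1145 units in atgsnor1-1, and 828 and 988 units in Col-0. In untreated leaves it read 1.90 and 21.6 units in atgsnor1-3, 49.8 and 52.7 units in sid2, 239 and 298 units in atgsnor1-1, and 380.5 and 632 units in Col-0. The untreated atgsnor1-3 arrays differed 11.4-fold from each other, the widest gap within any group of the 6 genes. After avrB, atgsnor1-3 lay below every other genotype, and sid2 lay above Col-0 and overlapped atgsnor1-1. The log2 difference between atgsnor1-3 and Col-0 was -0.96 after avrB and -6.26 in untreated leaves, or -4.55 in untreated leaves with dim signals set to 20.2 units.

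AT1G57630 encodes a TIR-domain protein. After avrB it read 1248 and 1381 units in atgsnor1-3, 1441 and 1445 units in sid2, 1252 and 1308 units in atgsnor1-1, and 1229.6 and 1713 units in Col-0. In untreated leaves it read 3.09 and 0.872 units in atgsnor1-3, 19.9 and 15.7 units in sid2, 138 and 128 units in atgsnor1-1, and 120.3 and 164 units in Col-0. The arrays of atgsnor1-3, sid2 and atgsnor1-1 after avrB all lay within the range of the pair of Col-0 arrays, while in untreated leaves the order was atgsnor1-3, sid2, then the overlapping atgsnor1-1 and Col-0. Between atgsnor1-3 and Col-0 the log2 difference was -0.14 after avrB and -6.42 in untreated leaves, or -2.80 in untreated leaves with dim signals set to 20.2 units. The log2 difference between avrB-treated and untreated leaves was 9.65 in atgsnor1-3 and 3.37 in Col-0. With dim signals set to 20.2 units, the atgsnor1-3 value was 6.02, or 64.9-fold.

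For the other genes, the sign of the difference between avrB-treated and untreated leaves was the same in atgsnor1-3 and Col-0, negative for AT5G55450, AT5G03350 and AT1G76960 and positive for AT3G51330 and AT5G52760. In atgsnor1-3, the log2 difference between avrB-treated and untreated leaves was -2.32 for AT5G03350, 4.69 for AT3G51330 and 6.18 for AT5G52760. In Col-0 the values were -0.77 for AT5G03350, 0.29 for AT3G51330 and 0.88 for AT5G52760. Treated and untreated Col-0 arrays overlapped for AT3G51330, and the Col-0 value of AT5G52760 had a standard error of 0.66. The sign in Col-0 is thus not firm for these genes. AT5G55450 stood at -1.94 in atgsnor1-3 and -1.05 in Col-0, and AT1G76960 at -3.08 in atgsnor1-3 and -1.77 in Col-0. With dim signals set to 20.2 units, the atgsnor1-3 value was 1.16 for AT3G51330 (2.24-fold), 4.48 for AT5G52760 (22.2-fold), -0.03 for AT5G55450 and -0.13 for AT1G76960. These comparisons of atgsnor1-3 and Col-0 share the arrays that chose the genes.

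Counted by arrays, both untreated atgsnor1-3 arrays lay below both Col-0 arrays for 6 of 6 genes, as they did for 23.8% of all probe sets kept. After avrB this held for 5 of 6 genes, against 33.5% of all probe sets kept, with AT1G57630 the exception. The choice of the genes used these contrasts, so nothing is read from the counts. In sid2, both untreated arrays lay below both Col-0 arrays for 6 of 6 genes (26.7% of all probe sets kept), and after avrB for 4 of 6 (27.0% of all probe sets kept), with AT5G52760 above Col-0 and AT1G57630 overlapping it. These comparisons use the same Col-0 arrays as the choice of the genes.

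In untreated sid2 leaves the 6 genes held 5.72% to 20.3% of the Col-0 signal, AT5G55450 the least and AT1G76960 the most. After avrB, sid2 held 3.05% of the Col-0 signal for AT5G03350, 3.92% for AT1G76960, 13.6% for AT5G55450 and 40.1% for AT3G51330, and it stood at 99.4% for AT1G57630 and 122% for AT5G52760. With dim signals set to 20.2 units, sid2 was 13.2-fold lower than Col-0 for AT1G76960 after avrB and 8.54-fold lower for AT3G51330 in untreated leaves. The plot of distances from Col-0 sets these values beside those of atgsnor1-3, with which they share the Col-0 arrays. In atgsnor1-1 the untreated signal was 54.4% to 94.4% of Col-0, and after avrB it was 88.2% to 253%, the highest share being that of AT1G76960. Between atgsnor1-3 and sid2, the log2 difference in untreated leaves was -0.38 for AT5G03350. With dim signals set to 20.2 units it was -2.13 for AT5G55450, -3.06 for AT1G76960 and -1.29 for AT5G52760. For AT3G51330 and AT1G57630 all arrays of both genotypes lay under 20.2 units, so that scale cannot show a difference. Their deposited signals were lower in atgsnor1-3, at -2.97 and -3.43, sizes that are not firm near background.

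**Figure D2:**
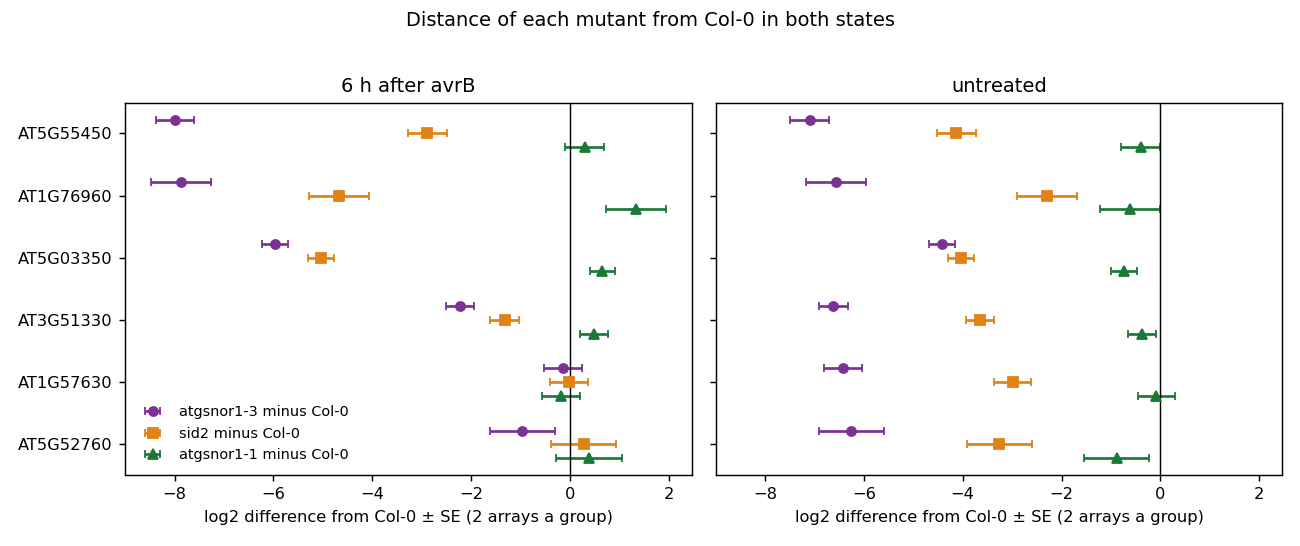
Log2 difference of each mutant from Col-0 (mutant minus Col-0, mean of 2 arrays each, bars ± SE from the fit over all arrays) for the 6 genes, after avrB and untreated. In atgsnor1-3, AT5G55450 lies at -7.99 after avrB and -7.10 in untreated leaves, whereas AT1G57630 lies at -0.14 after avrB and -6.42 in untreated leaves. With dim signals set to 20.2 units these untreated values are -6.25 and -2.80.

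The tests below used only arrays of sid2 and atgsnor1-1 for each difference, none of which chose the genes. A gene was called when limma's moderated test gave an adjusted p under 0.05 and the log2 difference was at least 1 in size, and errors are standard errors with 2 arrays per group. The spread was estimated from all 8 groups together. The 5 comparisons share arrays among themselves, so their results are not independent of each other.

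In untreated leaves, 5 of the 6 genes were lower in sid2 than in atgsnor1-1, where 2.23% of all probe sets kept were called lower and 0.945% higher. The log2 difference was -3.72 ± 0.39 for AT5G55450 (limma adjusted p = 1.38e-05), -3.31 ± 0.26 for AT5G03350 (limma adjusted p = 5.72e-07) and -3.28 ± 0.29 for AT3G51330 (limma adjusted p = 2.33e-06). It was -2.91 ± 0.38 for AT1G57630 (limma adjusted p = 0.000117) and -2.38 ± 0.66 for AT5G52760 (limma adjusted p = 0.0467). Across the 6 genes the signal of sid2 was 7.57% to 31% of that of atgsnor1-1. With dim signals set to 20.2 units, AT3G51330 stood at -2.73 and AT1G57630 at -2.71. The call of AT5G52760 was lost without any 1 of the 4 arrays (limma adjusted p from 0.136 to 0.283). AT1G76960, at -1.69 ± 0.61 with a 95% interval of -2.98 to -0.40, was not called (limma adjusted p = 0.15). The shared spread of that gene includes the untreated atgsnor1-3 arrays at 3.81 and 24.2 units. It also includes the avrB-treated sid2 arrays at 16.5 and 6.60 units, and the part of either pair in the missing call was not tested. A fit of the 4 arrays of untreated sid2 and atgsnor1-1 alone gave AT1G76960 a limma adjusted p of 3.16e-05 and AT5G52760 one of 1.05e-07. Untreated atgsnor1-3 arrays at 1.90 and 21.6 units enter the shared spread of AT5G52760, and their part in its lost calls was not tested. The median over the 6 genes was -3.09, and over all probe sets kept it was 0.

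After avrB, 4 of the 6 genes were lower in sid2 than in atgsnor1-1, beside 2.24% of all probe sets kept called lower and 2.26% called higher. AT1G76960 stood at -6.01 ± 0.61 on the log2 scale (limma adjusted p = 1.68e-05), or at -5.06 with dim signals set to 20.2 units. AT5G03350 stood at -5.70 ± 0.26 (limma adjusted p = 1.25e-09), and sid2 held 1.92% of the atgsnor1-1 signal. AT5G55450 stood at -3.18 ± 0.39 (limma adjusted p = 0.000118) and AT3G51330 at -1.81 ± 0.29 (limma adjusted p = 0.00116). These 4 calls held without any 1 array. AT1G57630, at 0.17 ± 0.38 with a 95% interval of -0.63 to 0.97, and AT5G52760, at -0.10 ± 0.66 with an interval of -1.50 to 1.29, were not called. The intervals leave room for differences of close to 1 log2 unit for the TIR gene and more for the metal-associated gene. They rest on the spread of all groups, including the dim untreated atgsnor1-3 arrays, whose part in the width was not tested. With the compared groups alone, the standard errors were 0.15 for AT1G57630 and 0.16 for AT5G52760. The median over the 6 genes was -2.50, against -0.02 over all probe sets kept.

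In sid2, avrB-treated leaves had higher signal than untreated leaves for 3 of the genes and lower signal for 2, where 10.9% of all probe sets kept were called higher and 11.6% lower. AT1G57630 rose by 6.35 ± 0.38 on the log2 scale (limma adjusted p = 3.81e-09), AT5G52760 by 4.42 ± 0.66 (limma adjusted p = 5.73e-05) and AT3G51330 by 2.62 ± 0.29 (limma adjusted p = 3.06e-06). AT1G76960 fell, at -4.14 ± 0.61 (limma adjusted p = 4.93e-05), and so did AT5G03350, at -1.77 ± 0.26 (limma adjusted p = 5.02e-05). AT5G55450 was not called, at 0.19 ± 0.39 (limma adjusted p = 0.738). Since untreated AT1G57630 and AT3G51330 lay below 20.2 units, and so did AT1G76960 after avrB, their values with dim signals set to that level were 6.16, 2.07 and -3.19. The median over the 6 genes was 1.41 and over all probe sets kept -0.16.

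In atgsnor1-1, 3 of the genes were higher after avrB than in untreated leaves and none was called lower, where 8.58% of all probe sets kept were called higher and 10.5% lower. AT1G57630 rose by 3.27 ± 0.38 on the log2 scale (limma adjusted p = 6.58e-06), AT5G52760 by 2.15 ± 0.66 (limma adjusted p = 0.0185) and AT3G51330 by 1.14 ± 0.29 (limma adjusted p = 0.00589). The call of AT5G52760 was lost without any 1 of the 4 arrays (limma adjusted p from 0.0576 to 0.101). The call of AT3G51330 was lost without array 1 of the untreated atgsnor1-1 leaves (limma adjusted p = 0.0627) or without array 1 of the treated ones (0.0706). AT5G55450 at -0.35 ± 0.39, AT1G76960 at 0.18 ± 0.61 and AT5G03350 at 0.62 ± 0.26 were not called. Their 95% intervals ran from -1.18 to 0.48, from -1.11 to 1.47 and from 0.07 to 1.17, in that order. Fitted on the treated and untreated atgsnor1-1 arrays alone, AT5G52760 had a limma adjusted p of 2.43e-07 and AT3G51330 one of 0.000292. The median over the 6 genes was 0.88 and over all probe sets kept -0.08.

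The response to avrB, the difference between treated and untreated leaves, differed between sid2 and atgsnor1-1 for 3 of the genes. Among all probe sets kept, 0.865% were called with a higher response in sid2 and 0.388% with a lower one. The response of AT1G57630 was higher in sid2 by 3.08 ± 0.53 on the log2 scale (limma adjusted p = 0.00792), or by 2.89 with dim signals set to 20.2 units. Its untreated signal was lower in sid2, and its signal after avrB was not called between the genotypes. The response of AT1G76960 was lower in sid2, at -4.32 ± 0.86 (limma adjusted p = 0.0189), or at -3.37 with dim signals set to 20.2 units, and so was that of AT5G03350, at -2.39 ± 0.37 (limma adjusted p = 0.00306). The call of AT1G57630 was lost without array 1 of avrB-treated atgsnor1-1 (limma adjusted p = 0.0528), and that of AT1G76960 without any 1 of 6 of the 8 arrays. For AT1G76960 those were the untreated atgsnor1-1 arrays 1 (limma adjusted p = 0.0918) and 2 (0.0585), the avrB-treated atgsnor1-1 arrays 1 (0.0662) and 2 (0.0707), array 1 of untreated sid2 (0.0957) and array 2 of sid2 after avrB (0.104). AT5G55450 at 0.54 ± 0.56, AT3G51330 at 1.47 ± 0.41 (0.92 with dim signals set to 20.2 units) and AT5G52760 at 2.28 ± 0.93 were not called. Fitted on the 4 groups of sid2 and atgsnor1-1 alone, AT3G51330 (limma adjusted p = 0.0294) and AT5G52760 (limma adjusted p = 0.000136) were called as well. The shared spread of AT5G52760 includes the untreated atgsnor1-3 arrays at 1.90 and 21.6 units, and their part in the missing call was not tested. The median over the 6 genes was 1.00, against 0 over all probe sets kept.

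**Figure D3:**
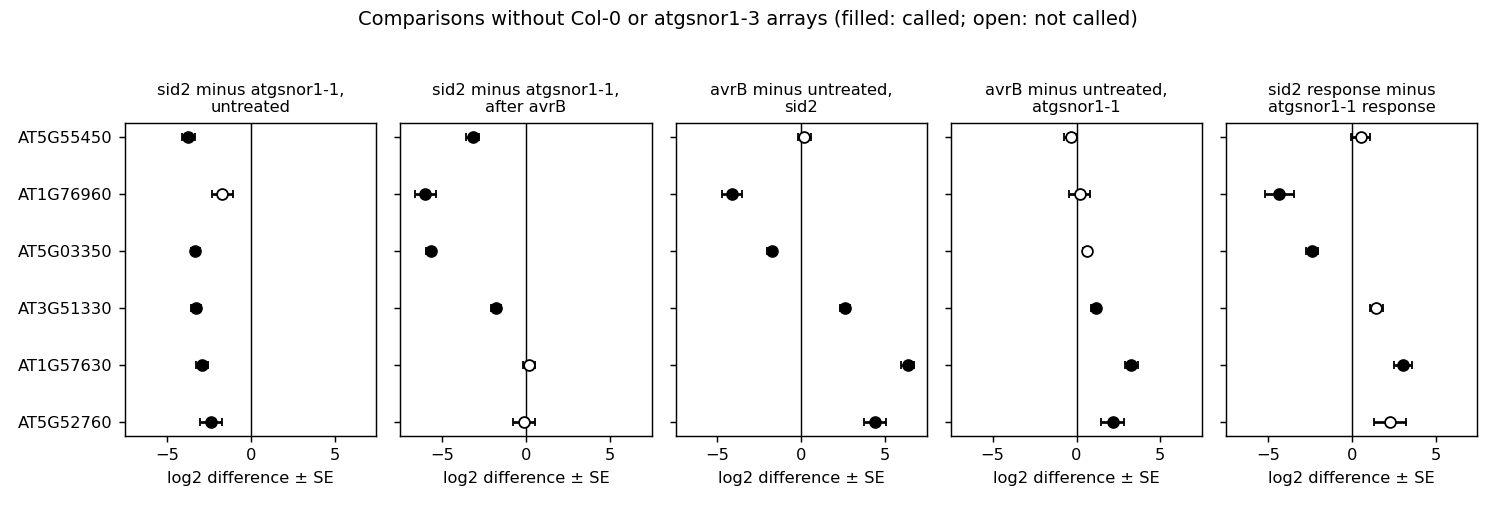
Log2 differences ± SE of the 6 genes in the 5 tested comparisons of sid2 and atgsnor1-1 (limma, 2 arrays per group), filled where called and open where not. After avrB, AT5G03350 lies at -5.70 and AT1G57630 at 0.17 between sid2 and atgsnor1-1.

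The summed signal of the 7 photosynthesis markers was lower after avrB than in untreated leaves in all 4 genotypes. It ran from 16447 to 19257 units after avrB and from 38779.6 to 44591 units untreated in atgsnor1-3, and from 17112 to 18546 units after avrB and from 34450.1 to 36465 units untreated in sid2. In atgsnor1-1 it ran from 16987 to 17769.6 units after avrB and from 29139 to 37677 units untreated, and in Col-0 from 17120.0 to 20291 units after avrB and from 30038 to 37004 units untreated. Its part in the responses of the 6 genes was not tested. Within avrB-treated leaves the ranges of the 4 genotypes overlapped, and untreated atgsnor1-3 lay above the others. Of 4 listed guard cell markers 1 was measured, FMA (AT3G24140), above 20.2 units on all 16 arrays. After avrB it ran from 29.2 to 45.0 units in atgsnor1-3, 49.6 to 70.5 in sid2, 53.0 to 62.9 in atgsnor1-1 and 66.3 to 70.5 in Col-0, lowest in atgsnor1-3. In untreated leaves it ran from 60.8 to 61.1 units in atgsnor1-3, 51.6 to 71.9 in sid2, 38.9 to 57.8 in atgsnor1-1 and 42.9 to 69.2 in Col-0, where atgsnor1-3 lay within the Col-0 range. Its part in the low signals after avrB was not tested.

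The way the log2 signals of the 6 genes ran together across the arrays is given here as a description. The genes are split into the 3 furthest below Col-0 in atgsnor1-3 after avrB and the other 3, of which AT3G51330 also stayed below Col-0 there. This split rests on atgsnor1-3 and Col-0 arrays that are among the 16. Closer values within a set than between sets are thus in part built in, and nothing is read from them. Signals under 20.2 units entered as deposited. Over all 16 arrays, the Pearson correlation was 0.90 between AT5G55450 and AT1G76960, 0.90 between AT5G55450 and AT5G03350, and 0.91 between AT1G76960 and AT5G03350. Among the other 3 it was 0.89 between AT3G51330 and AT5G52760, 0.91 between AT1G57630 and AT5G52760, and 0.84 between AT3G51330 and AT1G57630. Between the 2 sets it ranged from 0.01, between AT1G76960 and AT1G57630, to 0.71, between AT5G55450 and AT3G51330. Over the 8 arrays of sid2 and atgsnor1-1 the values within the first set were 0.74 to 0.94, within the other 0.80 to 0.99 and between the sets -0.29 to 0.77. The highest between the sets was that of AT3G51330 with AT5G55450, above the 0.74 of AT1G76960 with AT5G55450 within a set, and AT3G51330 with AT5G03350 had 0.61. Within its own set AT3G51330 had 0.85 with AT5G52760 and 0.80 with AT1G57630, little above its 0.77 with AT5G55450. With AT1G76960 it had 0.29. The points share arrays and scaling, and arrays of the same group are not independent of the group's level.

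Among the other probe sets kept with a matched locus, those with the highest correlation over the 16 arrays are named next. Of the 13647 probe sets kept, 7332 had a matched locus, and the rest could not be named. PMEPCRF (AT5G53370), a pectin methylesterase gene, was among the 3 most alike for AT5G55450, AT1G76960 and AT5G03350, at 0.953, 0.967 and 0.966. PMEPCRF read 88.0 and 80.4 units in atgsnor1-3 after avrB and 142 and 164 units untreated, 160.1 and 147 units in sid2 after avrB and 217 and 230.2 units untreated, 396 and 436 units in atgsnor1-1 after avrB and 424 and 478 units untreated, and 379 and 363 units in Col-0 after avrB and 491 and 412 units untreated. It thus kept a larger part of its signal in atgsnor1-3 than the 3 genes did. AT1G74440 was the most alike for AT5G55450 (0.981), the cytochrome P450 gene CYP71B24 (AT3G26230) for AT1G76960 (0.973), AT1G23830 for AT3G51330 (0.982), AT2G23680 for AT1G57630 (0.986) and AT5G39670 for AT5G52760 (0.987). The glutamate receptor-like gene GLR2.7 (AT2G29120) at 0.978 and the RING-type ubiquitin ligase gene RING1 (AT5G10380) at 0.971 followed for AT3G51330.

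Over the 8 arrays of sid2 and atgsnor1-1 alone, AT5G52760 was itself among the 3 genes most like AT1G57630, at 0.994. AT3G01830 and AT1G10340 were among the 3 most alike for both genes, at 0.997 and 0.995 for AT1G57630 and 0.994 and 0.994 for AT5G52760. The chitinase-family gene CHI (AT2G43570) was among the 3 most alike for AT3G51330, at 0.984. For AT5G55450 the 3 were AT1G03400 and AT2G48030, both at 0.981, and GLR1.4 (AT3G07520) at 0.980. Over all 16 arrays AT1G03400 and AT2G48030 stood among the 3 most like AT5G03350. With 4 groups behind these 8 arrays, such values say how the group levels ran and no more.

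Of 30 genes listed for salicylic acid signalling and acquired resistance, 6 had a matched probe set and all 6 were kept. All 6 rose after avrB in sid2 (median 2.77, with 10.9% of all probe sets kept called higher) and in atgsnor1-1 (median 2.47, with 8.58% called higher) by the same limma test. Among them were UGT76B1 (AT3G11340), a glucosyltransferase, by 5.04 ± 0.87 in sid2, or 2.59 with dim signals set to 20.2 units, and the transcription factor WRKY53 (AT4G23810) by 2.43 ± 0.27 in sid2. In atgsnor1-1 the rise of SAG101 (AT5G14930), a regulator of immune receptor signalling, by 1.33 ± 0.31 was not called without array 2 after avrB (limma adjusted p = 0.0543). Between sid2 and atgsnor1-1 untreated, 2 of the 6 were lower, beside 2.23% of all probe sets kept, namely CHI at -3.37 ± 0.23 (limma adjusted p = 1.25e-07) and AT5G52810, an enzyme gene of pipecolic acid synthesis, at -2.18 ± 0.20 (limma adjusted p = 3.48e-06). After avrB, 4 of the 6 were lower in sid2, beside 2.24% of all probe sets kept, with CHI at -2.91 ± 0.23, UGT76B1 at -3.85 ± 0.87, the glutaredoxin GRX480 (AT1G28480) at -1.31 ± 0.29 and AT5G52810 at -1.03 ± 0.20. The calls of CHI held without any 1 array. After avrB, UGT76B1 lost its call without any 1 of the 4 arrays (limma adjusted p from 0.0501 to 0.0933), GRX480 without any 1 but array 2 of avrB-treated atgsnor1-1 (0.0599 to 0.0742), and AT5G52810 without array 1 of treated atgsnor1-1 (log2 -0.87) or of treated sid2 (log2 -0.99). None of the 6 had a called difference between the responses of sid2 and atgsnor1-1. Among all probe sets kept, 0.865% were called higher there and 0.388% lower, so a count of none is near these shares. AT5G52810 came nearest at 1.15 ± 0.28 (limma adjusted p = 0.0609). UGT76B1 stood at -1.78 ± 1.23 (limma adjusted p = 0.672). With dim signals set to 20.2 units it was called, at -3.85 (limma adjusted p = 1.51e-05). All its untreated sid2 and atgsnor1-1 arrays lay under that level. The floored value thus repeats the difference after avrB and cannot show how the responses differ. On the same scale AT5G52810 was called, at 1.15 (limma adjusted p = 0.0334).

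Relatives of the 6 genes were followed in the same tests. Of 20 TIR-domain genes listed, 13 had a matched probe set and 7 were kept, and after avrB 5 of these rose in sid2 and 4 in atgsnor1-1, beside 10.9% and 8.58% of all probe sets kept. None of the 7 was called between untreated sid2 and atgsnor1-1. There 2.23% of all probe sets kept were called lower and 0.945% higher, so a count of none is near these shares. After avrB, AT1G66090 was higher in sid2 than in atgsnor1-1 by 1.59 ± 0.21 (limma adjusted p = 0.000212) and AT1G72940 by 1.38 ± 0.34 (limma adjusted p = 0.0172). AT1G66090 also had a response higher in sid2 by 1.88 ± 0.30 (limma adjusted p = 0.00366). The calls of AT1G66090 held without any 1 array, and that of AT1G72940 after avrB was lost without any 1 of the 4.

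Of 13 other genes with a heavy-metal-associated domain, 7 had a matched probe set and 4 were kept. The shares of all probe sets given above are the background of the counts for this family and the families after it. AT5G52750 rose after avrB in sid2 by 3.25 ± 0.25 and AT5G60800 by 3.15 ± 0.26, and in atgsnor1-1 AT5G60800 rose by 1.56 ± 0.26. In untreated leaves AT5G52750 was lower in sid2 than in atgsnor1-1, at -2.36 ± 0.25 (limma adjusted p = 1.32e-05), as was AT5G60800, at -1.33 ± 0.26 (limma adjusted p = 0.00534), while AT1G51090 was higher by 1.20 ± 0.27. The responses of AT5G52750 and AT5G60800 were higher in sid2 than in atgsnor1-1, by 2.83 ± 0.35 and 1.59 ± 0.37. After avrB 1 of the 4 was called between the genotypes, AT2G36950, higher in sid2 by 1.24 ± 0.36. The calls of AT5G52750 held without any 1 array. Those lost were AT2G36950 without any 1 of the 4 arrays (limma adjusted p from 0.0572 to 0.312), AT1G51090 without any 1 but array 2 of untreated sid2 (0.0681 to 0.249), and untreated AT5G60800 without array 1 of atgsnor1-1 (0.0913) or of sid2 (0.0501). The response difference of AT5G60800 was lost without any 1 of the 8 arrays other than array 2 of untreated and of treated atgsnor1-1 (limma adjusted p from 0.098 to 0.24), with the replicate block (0.0648), with quantile normalization (0.0541), without the filter (0.0601) and without a trend (0.155).

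Of 15 lipid transfer protein genes listed, 4 had a matched probe set and 3 were kept. AT4G12490 rose after avrB by 2.14 ± 0.35 in sid2 and by 4.29 ± 0.35 in atgsnor1-1, and AT4G12500 by 3.57 ± 0.61 in sid2 and 6.14 ± 0.61 in atgsnor1-1 (3.14 and 4.91 with dim signals set to 20.2 units). AT5G48490 fell by 1.54 ± 0.47 in sid2, and at -0.76 with dim signals set to 20.2 units it was not called. After avrB, AT4G12490 was lower in sid2 than in atgsnor1-1, at -2.15 ± 0.35 (limma adjusted p = 0.00117), and its response was lower as well (limma adjusted p = 0.0418), a call lost without any 1 of the 8 arrays but array 2 of untreated atgsnor1-1 (0.0945 to 0.154). The fall of AT5G48490 was not called without any 1 of the 4 sid2 arrays but array 1 after avrB (limma adjusted p from 0.0565 to 0.216). None of the 3 was called between untreated sid2 and atgsnor1-1, where 2.23% of all probe sets kept were called lower and 0.945% higher. Of 7 other legume lectin genes, 5 had a matched probe set and 3 were kept, and none was called between sid2 and atgsnor1-1 in either state. AT3G16530 rose after avrB by 2.33 ± 0.26 in sid2 and 1.87 ± 0.26 in atgsnor1-1. AT1G53070 fell by 1.30 ± 0.35 in sid2, a call lost without array 1 of untreated sid2 (limma adjusted p = 0.082) or array 2 of treated sid2 (0.0991). Of 12 relatives of the aspartyl protease, 6 had a matched probe set and 1 was kept, NANA (AT3G12700), which was not called in any of the 5 comparisons.

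Genes within 50 locus numbers of the 6 on the same chromosome had 34 matched probe sets, of which 18 were kept. After avrB 5 of the 18 rose and 2 fell in sid2, and 3 rose and 1 fell in atgsnor1-1. Among all probe sets kept, 10.9% rose and 11.6% fell in sid2, and 8.58% rose and 10.5% fell in atgsnor1-1, so the numbers that fell were near or under these shares. Between sid2 and atgsnor1-1 untreated, 2 of the 18 were lower, AT5G52750 and AT5G52810, which lie near AT5G52760 and were described above. After avrB 2 were lower in sid2, AT5G52810 and AT5G55420, a transcribed pseudogene near AT5G55450, at -3.12 ± 0.60 (limma adjusted p = 0.00416), or -2.42 with dim signals set to 20.2 units. That call was lost without array 1 of treated atgsnor1-1 (limma adjusted p = 0.0656) or array 1 of treated sid2 (0.0503).

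The levels of AT5G52750 and AT5G55420 are given because they were called beside a member, a choice made after their values were seen. AT5G52750, next to AT5G52760 by locus number among the probe sets kept, read 337 and 367 units in atgsnor1-3 after avrB and 26.0 and 21.9 units untreated, 564 and 422 units in sid2 after avrB and 39.8 and 66.0 units untreated. It read 322 and 389 units in atgsnor1-1 after avrB and 243 and 286 units untreated, and 442 and 288 units in Col-0 after avrB and 336 and 399.7 units untreated. Like AT5G52760 it was low in untreated atgsnor1-3 and sid2, and after avrB atgsnor1-3 overlapped Col-0. AT5G55420 read 2.83 and 9.32 units in atgsnor1-3 after avrB and 12.6 and 6.80 units untreated, 9.20 and 16.9 units in sid2 after avrB and 11.3 and 15.0 units untreated. It read 130 and 90.2 units in atgsnor1-1 after avrB and 27.3 and 57.9 units untreated, and 73.9 and 37.9 units in Col-0 after avrB and 74.5 and 80.0 units untreated. As for AT5G55450, all atgsnor1-3 and sid2 arrays lay below all atgsnor1-1 and Col-0 arrays, here below 20.2 units. Whether probes of these neighbours also bind transcripts of AT5G52760 or AT5G55450 was not tested.

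**Figure D4:**
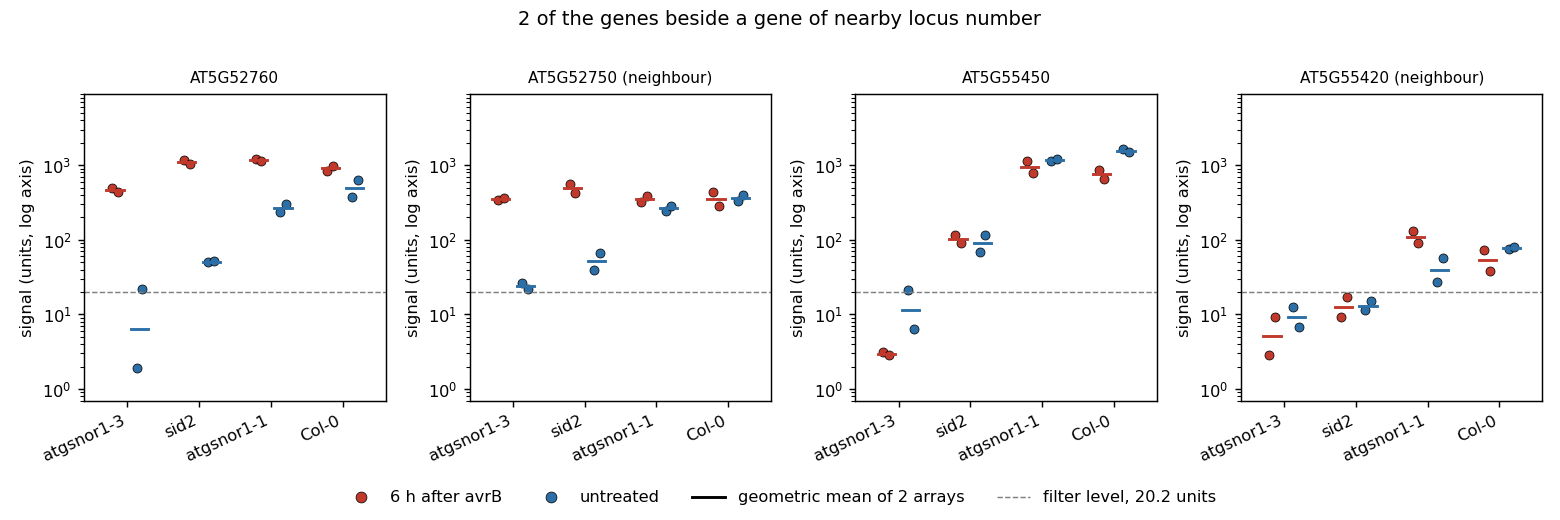
Signal on each array (log axis, signal units) of AT5G52760 beside its neighbour AT5G52750 and of AT5G55450 beside its neighbour AT5G55420, by genotype, after avrB and untreated, with 2 points per group and a bar at their geometric mean. In atgsnor1-3 after avrB, AT5G52750 reads 337 and 367 units and AT5G55420 reads 2.83 and 9.32 units.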

How the data were processed

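Total RNA of 16 leaf samples was hybridised to Affymetrix ATH1 arrays. The authors deposited a linear intensity for each probe set on each array. The submitters' processing notes name MAS5 and GCOS without a version. The arrays had been put on a common scale: the mean signal without the lowest and highest 2% was 100 units on every array. Groups were taken from the genotype and treatment in the labels; 1 title, of sid2 after avrB, carries replicate numbers 1 and 2 together, and that array is called array 2 here. Probe sets were matched to loci by gene ID through GEO's platform annotation and RefSeq's TAIR10.1 gene table (13436 of 13513 probe sets with 1 gene). No genome or sequence table was used.

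The 64 control probe sets and the dimmest 40% of the other 22746 by mean log2 signal (under 20.2 units) were left out, which left 13647. The remaining signals were analysed as log2 values with nothing added. A model of 8 group means was fitted by lmFit and eBayes (variance trend on the mean) of limma 3.58.1 under R 4.3.3, with 8 residual degrees of freedom, a two-sided moderated test and Benjamini-Hochberg adjustment within a comparison. The fit was tested on simulated data. The number of arrays limits the precision. Replicate numbers did not pair the samples: over 28 pairs of groups, deviations from group means correlated at -0.15 to 0.10.

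The members, gene lists, comparisons and alternatives were chosen with earlier results of these data known. Genes named are the 6 members, the 3 probe sets most correlated with each over 16 or 8 arrays, and called members of the lists and neighbours within 50 locus numbers. The fit was repeated with a pseudocount of 9.51 units, a floor at 20.2 units, quantile normalization, the dimmest 60% or no probe sets left out, no variance trend, the replicate number as a term, the compared groups alone, and each array left out in turn (7 residual degrees of freedom, the lone array assumed to vary like the other groups). Python 3.11.15 with pandas 2.3.3 was used for tables and matplotlib 3.10.9 for figures.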

Additional observations from a re-analysis of the deposited data

Results flagged for a closer look

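For 3 of the 6 genes the response to avrB differed between sid2 and atgsnor1-1 by the test of the difference itself. Among all probe sets kept, 0.865% were called with a higher response in sid2 and 0.388% with a lower one. AT1G76960 stood at -4.32 (response of sid2 minus that of atgsnor1-1, log2 scale, limma adjusted p = 0.0189), or -3.37 with signals under 20.2 units set to that level, and its call was lost without any 1 of 6 of the 8 arrays. AT5G03350 stood at -2.39 (limma adjusted p = 0.00306). AT1G57630 stood at 3.08 (limma adjusted p = 0.00792), or 2.89 with signals under 20.2 units set to that level. Its call was lost without array 1 of avrB-treated atgsnor1-1. Without a variance trend the calls of AT1G76960 (limma adjusted p = 0.104) and AT1G57630 (limma adjusted p = 0.0613) were lost as well.

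For AT5G03350, both avrB-treated arrays of atgsnor1-3 lay below both untreated ones, while in atgsnor1-1 both treated arrays lay above both untreated ones, and the difference between the responses was -2.94 (atgsnor1-3 minus atgsnor1-1, log2 scale). In Col-0 the treated arrays also lay below the untreated ones, and the response of atgsnor1-1 minus that of Col-0 was 1.39. These 2 differences hold arrays on which the gene was chosen and were not tested.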

How the results depend on the processing

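Of 384 values of the 6 genes under an alternative, 350 kept their direction and their side of the threshold, 23 kept the direction and lost the call, and 7 gained a call. The other 4, for AT5G55450 in sid2, AT1G76960 in atgsnor1-1 and AT5G52760 between sid2 and atgsnor1-1 after avrB, changed sign without 1 array and were called in neither fit. No call changed between avrB-treated and untreated sid2, or between sid2 and atgsnor1-1 after avrB. Without a trend, the calls of AT5G52760 were lost in the avrB response of atgsnor1-1 (limma adjusted p = 0.053) and between untreated sid2 and atgsnor1-1 (0.145), as were the response differences of AT1G76960 (0.104) and AT1G57630 (0.0613). Between untreated sid2 and atgsnor1-1, AT5G52760 was also lost with quantile normalization (limma adjusted p = 0.0774) and without the filter (0.0634), and AT1G76960 gained a call with the pseudocount (0.00608) and the floor (0.00019). The response difference of AT5G52760 gained a call with the pseudocount (limma adjusted p = 0.0162) and the floor (9.22e-05). The number of probe sets called for the response difference was 171, and it was 282 with the floor, 60 without a trend, 283 with only the compared groups and 58 to 166 without 1 array. Between sid2 and atgsnor1-1 after avrB the number was 614, and 320 to 701 without 1 array, the lowest without array 1 of atgsnor1-1 after avrB and 325 without array 2 of sid2 after avrB. The cause was not tested. With the replicate block these numbers were 158 and 604, and the block changed no call of the 6 genes. Of 45 called values of other genes named, 32 kept their call under every alternative, 13 lost it without 1 array and none changed sign. Dim signals, below 20.2 units on at least 1 atgsnor1-3 array for 5 of the 6 genes, limit how large their differences can be said to be.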
